A study of Mus musculus with 10 samples.

Results

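The 10 genes described here are 2310061I04Rik, Pnldc1, Abca2, Cdh9, Tmem229b, Ppa2, Ddo, Gsap, Syngr1 and Ptger4. They were chosen from genes with small p-values between FF and VV fat, leaving out genes known for heat production, and they are 10 of the 19659 genes measured. They are not simply the remaining genes with the smallest p, since Ptger4, Gsap and Syngr1 were at ranks 51, 112 and 129. Since the difference between FF and VV on these arrays chose them, their own differences, spreads and p-values are given as a description and were not tested. The 7 genes 2310061I04Rik, Pnldc1, Abca2, Cdh9, Ppa2, Ddo and Syngr1 were higher in FF, and Tmem229b, Gsap and Ptger4 were lower.

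The arrays held inguinal-femoral subcutaneous fat of 10 female F2 mice aged 14 weeks, which were untreated and fed chow, with 1 mouse per array. Mice carry the replicate numbers of the labels. FF mice (5) were homozygous for the Fat-line allele at Fob3a, an obesity locus on chromosome 15, and VV mice (5) for the allele of the congenic V line, which the labels also call the Lean-line allele. The V line was made by repeated backcrossing to the Fat line, so both groups carry a largely Fat-line background, and the labels state that other obesity loci were removed with markers, but not which segments besides Fob3a still differed in the F2. The tissue was a whole depot, in which fewer cells of a type and less RNA per cell cannot be told apart. With 10 arrays, precision is limited by their number. All 9 measured markers of mature adipocytes lay above the 90th percentile of the array in every mouse, and 0 of them passed the threshold of the comparison of FF with VV (4 had an unadjusted p under 0.05). Among them the adipokine Adipoq had a log2 intensity of 13.34 ± 0.07 among FF mice and 13.38 ± 0.07 among VV mice (SD, n = 5 per group).

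The 10 genes do not form a known pathway. Ppa2 and Ddo encode enzymes of mitochondria and peroxisomes, the organelles in which adipocytes oxidise fuel, and Pnldc1 encodes a nuclease of the piRNA pathway, which silences transposons in the germ line. Abca2 and Syngr1 encode membrane proteins of endolysosomes and synaptic vesicles, Cdh9 encodes an adhesion molecule, Ptger4 a prostaglandin receptor and Gsap a regulator of a membrane protease. The roles of 2310061I04Rik and Tmem229b in fat are not part of textbook knowledge.

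In limma, 148 of 19659 genes passed an adjusted p of 0.05, which is 0.753% of all genes, with 0.621% higher and 0.132% lower in FF. The 10 genes were drawn from these 148. They included 7 of the first 11 genes by p, namely 2310061I04Rik at rank 1, Pnldc1 at 2, Abca2 at 6, Cdh9 at 8, Tmem229b at 9, Ppa2 at 10 and Ddo at 11. The other 4 of the first 11 were Ucp1, Deptor, Ntrk3 and Bckdha, and the next after Ddo was Coq10a, a coenzyme Q binding protein, at rank 12. Ptger4, Gsap and Syngr1 came from further down, at ranks 51, 112 and 129. The adjusted p ran from 0.000267 for 2310061I04Rik to 0.0475 for Syngr1. The last gene inside the threshold was Txnrd2, with an adjusted p of 0.0497, and the first outside it was Cd4, just above 0.05.

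The differences were modest in size. The 10 genes differed by between 1.23-fold (Syngr1) and 1.68-fold (Ddo), and 146 genes had a larger absolute log2 difference than Ddo, of which 130 did not pass the threshold. Spread between mice of a group differed widely among the 10. The pooled SD within groups was 0.0383 log2 units for 2310061I04Rik, at percentile 1.43 of all genes, and 0.0617 for Tmem229b, at percentile 11.2, against a median of 0.108. Ddo and Gsap were at the other end, at percentiles 83.3 and 81.4. FF and VV mice did not overlap for any of the 10 genes, which was so for 4.7% of all genes.

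**Figure D1:**
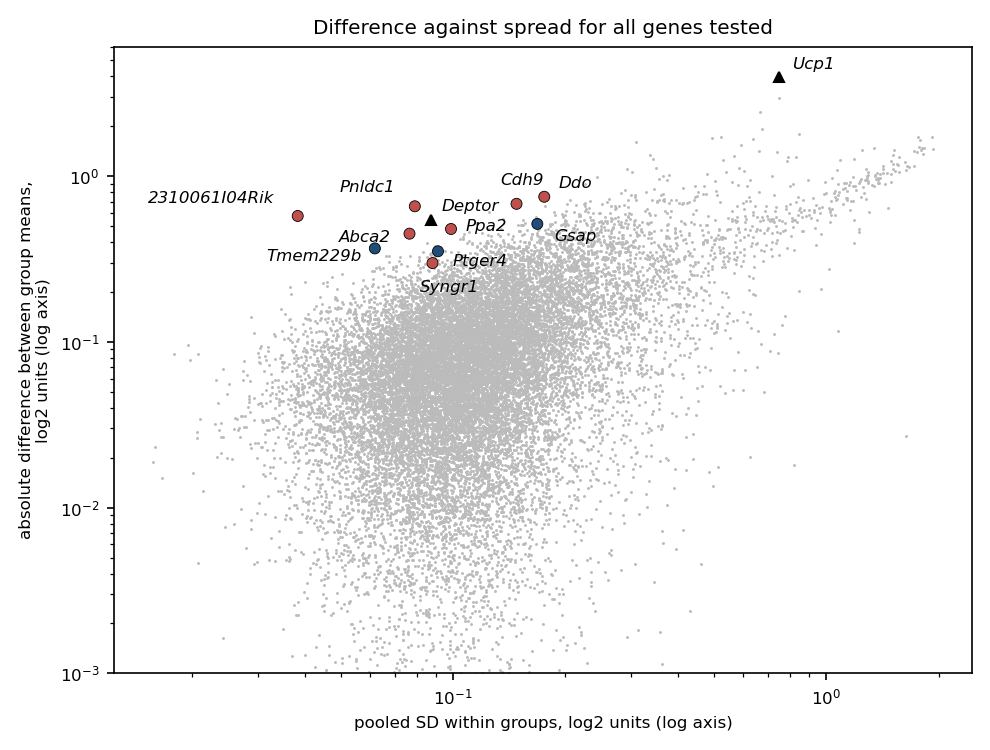
Absolute difference between the FF and VV means (vertical, log2 units, log axis) against the pooled SD within groups (horizontal, log2 units, log axis) for each gene tested, as grey points; the 151 genes with a difference under 0.001 are not drawn. The 10 genes are circles, red where higher and blue where lower in FF, with Ucp1 and Deptor as triangles; 2310061I04Rik lies far to the left at a pooled SD of 0.0383, and Ucp1 lies at the top with a difference of 3.96.

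No gene met the definition used here of an on/off pattern, in which the signal is near the floor of the array in all mice of 1 group. Such a pattern was defined as all 5 mice of a group below the 25th percentile of the array and all 5 of the other above the 50th, and it was met by 0 of the 19659 genes in either direction. A smaller drop in signal would not meet this definition. Among the 10 genes Cdh9 came nearest to the floor, between percentiles 23.6 and 27.6 in VV and between 34.4 and 44.2 in FF. Pnldc1 was the only gene of the 10 with all FF mice on one side of the array's median position, above it, and all VV mice below it. Over all genes 7 were split by that position in either direction (0.0356%). Pnldc1 lay near it, between percentiles 46.2 and 47.7 in VV and between 55.9 and 60.2 in FF. A percentile reflects the brightness of a probe set as well as the amount of RNA, and these files give no detection call. The distance between the nearest FF and VV mice was larger than the widest range within a group for 5 of the 10 genes, 2310061I04Rik (4.01 times that range), Pnldc1 (1.77), Tmem229b (1.68), Abca2 (1.32) and Ppa2 (1.10). That was so for 10 genes in all, or 0.0509%. For Gsap and Syngr1 the distance was 0.201 and 0.238 times the range.

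**Figure D2:**
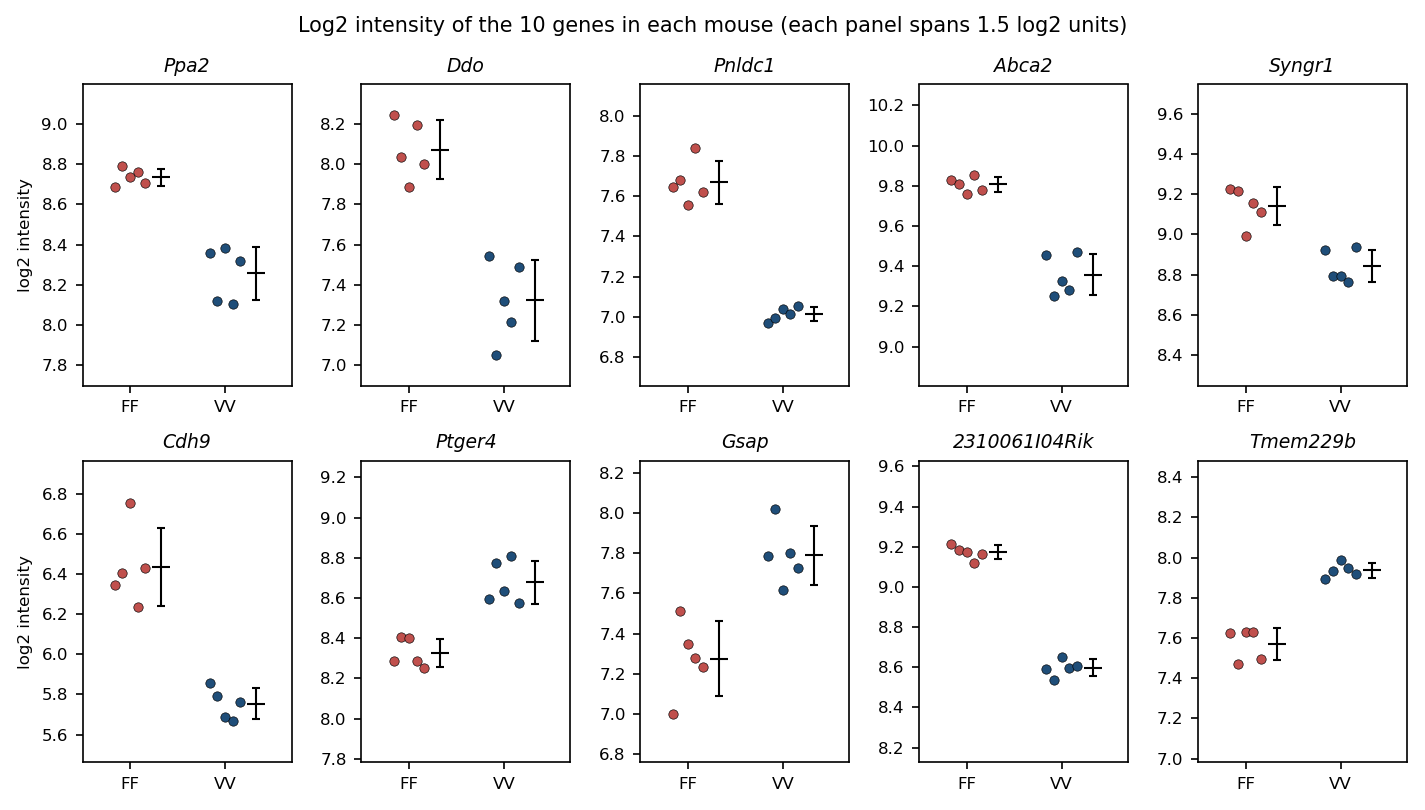
Log2 intensity (vertical) of each of the 10 genes in each mouse, with FF in red and VV in blue, and the mean ± SD of 5 mice beside each group; every panel spans the same number of log2 units. The FF points of 2310061I04Rik, between 9.12 and 9.22, form a tight band above the VV points, between 8.54 and 8.65, while the highest VV mouse of Syngr1 at 8.94 nearly reaches the lowest FF mouse at 8.99.

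Among the enzymes, Ppa2 encodes the inorganic pyrophosphatase of mitochondria, which splits the pyrophosphate released by biosynthetic reactions. Ppa2 (probe set 10496169) had log2 intensities of 8.68, 8.79, 8.74, 8.76 and 8.71 in FF mice 1 to 5 and 8.36, 8.12, 8.38, 8.10 and 8.32 in VV mice 1 to 5. FF mice lay close together, while VV mice fell into a lower pair (mice 2 and 4) and 3 higher mice, all of them below the FF range. The means were 8.74 ± 0.04 (FF) and 8.26 ± 0.13 (VV) (SD, n = 5 per group), so that Ppa2 was 1.39-fold higher in FF (log2 difference 0.48, SE 0.06). Of the 3 other pyrophosphatase genes measured, 0 passed the threshold in limma and 0 had an unadjusted p under 0.05. The cytosolic enzyme Ppa1 differed by 0.13 (adjusted p = 0.608) and the phosphatase Lhpp by -0.14 (adjusted p = 0.356).

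Ddo encodes D-aspartate oxidase, a peroxisomal flavoenzyme that degrades D-aspartate. Ddo (probe set 10362701) had log2 intensities of 8.24, 8.04, 7.89, 8.20 and 8.002 in FF mice 1 to 5 and 7.54, 7.05, 7.32, 7.21 and 7.49 in VV mice 1 to 5. It had the widest difference of the 10 and also the widest spread, with VV mouse 2 lowest and VV mouse 1 the VV mouse nearest to FF. The means were 8.07 ± 0.15 (FF) and 7.32 ± 0.20 (VV) (SD, n = 5 per group), so that Ddo was 1.68-fold higher in FF (log2 difference 0.75, SE 0.10). The Ddo window of 250 bases before to 50 after the start site is shown because it alone among the members' windows held CACGTG. This is 1 form of the E-box, the site bound by several basic helix-loop-helix factors, and other forms were not searched. It lies at chr10:40629761-40630060, plus strand (RefSeq, GRCm38.p6), and capitals mark the E-box at bases 124 to 129 and CCAAT boxes at bases 171 to 175 and 214 to 218, counted from the 5′ end.
Ddo promoter: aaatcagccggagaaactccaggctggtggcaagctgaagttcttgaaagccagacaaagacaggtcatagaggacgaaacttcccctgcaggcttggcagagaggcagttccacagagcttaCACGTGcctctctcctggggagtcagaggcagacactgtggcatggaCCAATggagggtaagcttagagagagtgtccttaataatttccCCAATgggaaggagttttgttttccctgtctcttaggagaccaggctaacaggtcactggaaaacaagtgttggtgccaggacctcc
In the list of D-amino acid and aspartate metabolism, 0 of 14 measured genes passed the threshold, 4 had a positive and 1 a negative difference at an unadjusted p under 0.05, and the median difference was -0.01. The smallest p-values were those of Adssl1, an adenylosuccinate synthase that uses aspartate (0.52, adjusted p = 0.0966), and Aspa, which cleaves N-acetylaspartate (0.52, adjusted p = 0.0976). Without FF mouse 3, Aspa passed, with a difference of 0.62 and an adjusted p of 0.0409.

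Pnldc1 encodes a 3′ exonuclease of the PARN family that trims piRNA precursors, and it is known mainly from the testis. Pnldc1 (probe set 10447860) had log2 intensities of 7.65, 7.68, 7.56, 7.84 and 7.62 in FF mice 1 to 5 and 6.97, 6.99, 7.04, 7.02 and 7.05 in VV mice 1 to 5. The VV mice lay in a narrow band, and FF mouse 4 was the highest mouse. The means were 7.67 ± 0.11 (FF) and 7.01 ± 0.03 (VV) (SD, n = 5 per group), so that Pnldc1 was 1.58-fold higher in FF (log2 difference 0.66, SE 0.05). Of 21 measured genes of the piRNA pathway and the PARN family, 0 passed the threshold, 3 had a positive and 1 a negative difference at an unadjusted p under 0.05, and the median difference was 0.03. Exd1, an adaptor of piRNA production, differed by 0.29 (adjusted p = 0.0927) and Pld6, a mitochondrial protein needed for piRNA processing, by -0.13 (adjusted p = 0.249). Exd1 passed after arrays were centred on their median, with a difference of 0.32 and an adjusted p of 0.0473.

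Among the membrane proteins, Abca2 encodes an ABC transporter of late endosomes and lysosomes involved in lipid trafficking. Abca2 (probe set 10470050) had log2 intensities of 9.83, 9.81, 9.76, 9.85 and 9.78 in FF mice 1 to 5 and 9.46, 9.25, 9.33, 9.28 and 9.47 in VV mice 1 to 5. All FF mice lay within a narrow band, and VV mice 1 and 5 stood above the other VV mice. The means were 9.81 ± 0.04 (FF) and 9.36 ± 0.10 (VV) (SD, n = 5 per group), so that Abca2 was 1.37-fold higher in FF (log2 difference 0.45, SE 0.05). None of the 15 other measured genes of the ABCA family passed the threshold, and 1 had an unadjusted p under 0.05, with a median difference of -0.06. Abca17 differed by -0.15 (adjusted p = 0.269) and Abca9 by -0.27 (adjusted p = 0.369), both away from the direction of Abca2.

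Syngr1 encodes synaptogyrin, a protein of synaptic vesicles that spans the membrane several times. Syngr1 (probe set 10425335) had log2 intensities of 9.23, 9.21, 8.99, 9.16 and 9.11 in FF mice 1 to 5 and 8.92, 8.79, 8.79, 8.76 and 8.94 in VV mice 1 to 5. The groups were separated by little, with FF mouse 3 the lowest FF mouse and VV mice 1 and 5 the highest VV mice, as for Abca2. The means were 9.14 ± 0.09 (FF) and 8.84 ± 0.08 (VV) (SD, n = 5 per group), so that Syngr1 was 1.23-fold higher in FF (log2 difference 0.30, SE 0.06). Syngr1 also appears in the annotation of 2 probe sets that name several genes; they had no values and were not used. Of 7 measured genes of the synaptogyrin and synaptophysin family, 0 passed the threshold and 1 had an unadjusted p under 0.05. That gene was Sypl, a widely expressed vesicle protein (0.17, adjusted p = 0.141), while Syngr2 differed by 0.05 (adjusted p = 0.655). The window of Syngr1 is shown because Syngr1, Cdh9 and Ptger4 lie on the chromosome of Fob3a. It lies at chr15:80091084-80091383, plus strand (RefSeq, GRCm38.p6), and capitals mark a GC box at bases 238 to 243 and a match to the element of NRF1, a factor of many nuclear genes of mitochondria, on the reverse strand at bases 251 to 260.
Syngr1 promoter: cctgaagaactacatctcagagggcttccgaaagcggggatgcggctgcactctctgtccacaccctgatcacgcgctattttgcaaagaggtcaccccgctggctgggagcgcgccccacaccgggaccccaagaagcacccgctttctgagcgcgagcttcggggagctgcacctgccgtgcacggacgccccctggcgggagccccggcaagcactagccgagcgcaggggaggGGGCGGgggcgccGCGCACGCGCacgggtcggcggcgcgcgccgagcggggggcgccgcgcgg

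Cdh9 encodes a type II classical cadherin known from cell adhesion in the nervous system. Cdh9 (probe set 10423230) had log2 intensities of 6.34, 6.40, 6.76, 6.24 and 6.43 in FF mice 1 to 5 and 5.86, 5.79, 5.69, 5.67 and 5.76 in VV mice 1 to 5. FF mouse 3 was the highest mouse, and the other FF mice lay closer to each other than to it. The means were 6.43 ± 0.19 (FF) and 5.75 ± 0.08 (VV) (SD, n = 5 per group), so that Cdh9 was 1.60-fold higher in FF (log2 difference 0.68, SE 0.09). Of 18 other cadherin genes measured, 0 passed the threshold, 1 had a positive and 3 a negative difference at an unadjusted p under 0.05, and the median difference was -0.05. Cdh4, the retinal cadherin, differed by -0.16 (adjusted p = 0.199) and Cdh19, a cadherin of Schwann cells, by 0.44 (adjusted p = 0.206). The window at chr15:16728665-16728964, plus strand (RefSeq, GRCm38.p6) held a CCAAT box at bases 177 to 181, in capitals.
Cdh9 promoter: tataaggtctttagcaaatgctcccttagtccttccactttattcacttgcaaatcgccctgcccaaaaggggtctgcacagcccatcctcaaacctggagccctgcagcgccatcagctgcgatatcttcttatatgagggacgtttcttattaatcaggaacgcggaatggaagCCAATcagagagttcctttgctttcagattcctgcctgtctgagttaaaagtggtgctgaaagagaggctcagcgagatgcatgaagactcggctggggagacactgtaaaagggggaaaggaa

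Among the genes lower in FF, Ptger4 encodes EP4, a receptor of prostaglandin E2 that raises cyclic AMP and is present on leukocytes as well as on fat cells. Ptger4 (probe set 10427461) had log2 intensities of 8.28, 8.41, 8.40, 8.28 and 8.25 in FF mice 1 to 5 and 8.59, 8.77, 8.63, 8.81 and 8.58 in VV mice 1 to 5. VV mice 2 and 4 were the highest mice, and these were also the lowest VV mice of Ppa2 and Ddo. The means were 8.33 ± 0.07 (FF) and 8.68 ± 0.11 (VV) (SD, n = 5 per group), so that Ptger4 was 1.28-fold lower in FF (log2 difference -0.35, SE 0.06). Of 13 measured genes for synthesis, reception and removal of prostaglandin E2, 0 passed the threshold, and 1 had a positive and 2 a negative difference at an unadjusted p under 0.05. Pla2g4a, the phospholipase that releases arachidonic acid, differed by -0.40 (adjusted p = 0.115), and Ptges2, a prostaglandin E synthase, by 0.38 (adjusted p = 0.115). Without FF mouse 3, Ptges2 passed, with a difference of 0.46 and an adjusted p of 0.0438. The other 3 receptors of this prostaglandin differed by -0.11 (Ptger1), -0.07 (Ptger2) and 0.04 (Ptger3), and 0 of 5 receptors of other prostanoids passed the threshold or had an unadjusted p under 0.05. The window at chr15:5244138-5244437, minus strand (RefSeq, GRCm38.p6) held the most matches among the members' windows, a CCAAT box at bases 176 to 180 and 4 GC boxes on the reverse strand starting at bases 103, 108, 156 and 209, of which the first 2 share a base.
Ptger4 promoter: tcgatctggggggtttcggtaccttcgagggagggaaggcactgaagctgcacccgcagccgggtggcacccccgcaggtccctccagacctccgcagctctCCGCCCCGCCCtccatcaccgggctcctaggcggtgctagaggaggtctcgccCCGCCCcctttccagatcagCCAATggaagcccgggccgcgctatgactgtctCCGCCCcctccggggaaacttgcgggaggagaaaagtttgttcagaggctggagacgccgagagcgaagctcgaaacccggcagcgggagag

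Gsap encodes a protein that activates gamma-secretase, the protease that cuts amyloid precursor protein and Notch within the membrane. Gsap (probe set 10519951) had log2 intensities of 7.00, 7.51, 7.35, 7.28 and 7.24 in FF mice 1 to 5 and 7.79, 8.02, 7.62, 7.80 and 7.73 in VV mice 1 to 5. FF mouse 1 was the lowest mouse and VV mouse 2 the highest, and FF mouse 2 came close to VV mouse 3. The means were 7.28 ± 0.19 (FF) and 7.79 ± 0.15 (VV) (SD, n = 5 per group), so that Gsap was 1.43-fold lower in FF (log2 difference -0.51, SE 0.10). Of 15 measured genes of gamma-secretase, its substrates and related proteases, 0 passed the threshold, and 1 had a positive and 2 a negative difference at an unadjusted p under 0.05. The sheddase Adam17 differed by -0.24 (adjusted p = 0.101) and App, the amyloid precursor, by -0.15 (adjusted p = 0.225), while the 4 measured subunits of the protease, Psen2, Ncstn, Aph1b and Aph1c, differed by 0.02, 0.04, -0.02 and -0.19.

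Of the genes with no role given here, 2310061I04Rik had the smallest p of all genes. 2310061I04Rik (probe set 10450614) had log2 intensities of 9.22, 9.18, 9.17, 9.12 and 9.16 in FF mice 1 to 5 and 8.59, 8.54, 8.65, 8.60 and 8.61 in VV mice 1 to 5. The mice of each group lay within 0.12 log2 units of each other. The means were 9.17 ± 0.03 (FF) and 8.60 ± 0.04 (VV) (SD, n = 5 per group), so that 2310061I04Rik was 1.49-fold higher in FF (log2 difference 0.57, SE 0.04). Tmem229b, a gene for a membrane protein, was lower in FF. Tmem229b (probe set 10401160) had log2 intensities of 7.63, 7.47, 7.63, 7.63 and 7.50 in FF mice 1 to 5 and 7.89, 7.93, 7.99, 7.95 and 7.92 in VV mice 1 to 5. FF mice 2 and 5 were the lowest mice, and VV mice lay close together. The means were 7.57 ± 0.08 (FF) and 7.94 ± 0.04 (VV) (SD, n = 5 per group), so that Tmem229b was 1.29-fold lower in FF (log2 difference -0.37, SE 0.05). Its relative Tmem229a differed by -0.19 (adjusted p = 0.469). A second probe set annotated to Tmem229b had no value on any array, and the reference lists a pseudogene of Tmem229b on chromosome 10. Whether the valued probe set also reads that pseudogene was not analysed here.

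Over all 10 lists of relatives, 0 of 112 measured genes passed the threshold in limma, beside 0.753% of all genes. At an unadjusted p under 0.05 there were 21, or 18.8%, against 16.4% of all genes. Their median difference was -0.01, beside 0.00 over all genes. The number past the threshold was 2 without FF mouse 3 (Aspa and Ptges2), 1 after centring arrays on their median (Exd1) and 0 without any other single mouse.

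**Figure D3:**
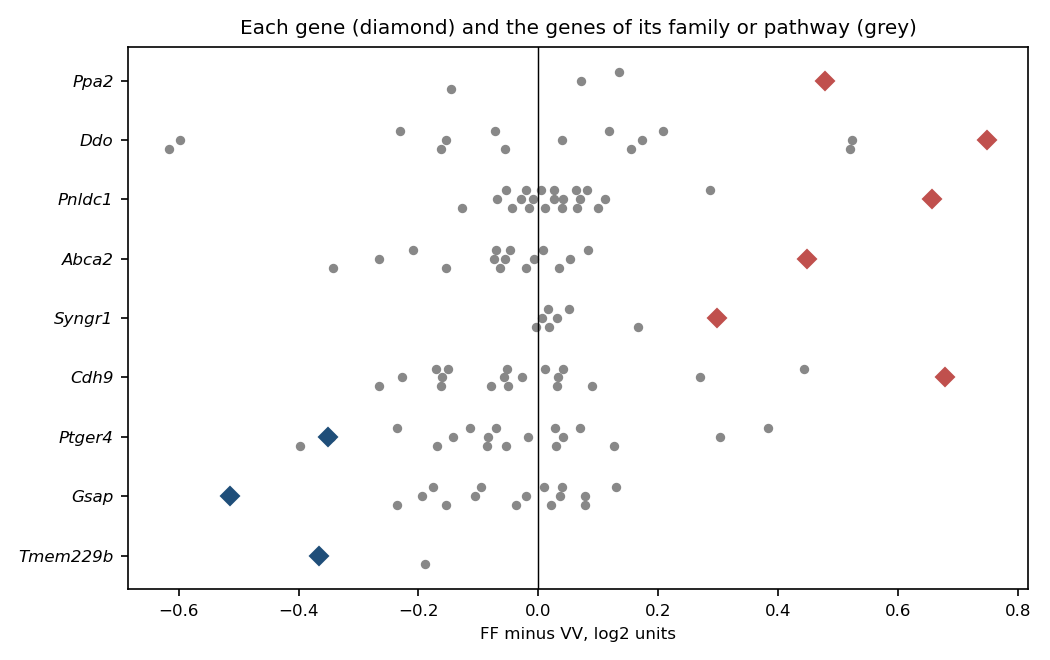
Difference between FF and VV means (horizontal, log2 units) for 9 of the genes, as diamonds, and for the measured genes of the family or pathway of each, as grey points placed at 3 heights for legibility. The diamonds of the 6 genes higher in FF lie to the right of every grey point of their list, and Pla2g4a at -0.40 lies beyond Ptger4 at -0.35. The diamonds were chosen for small p between FF and VV and the grey points by family or pathway, so their distance was not tested.

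The genes lay on 7 chromosomes. Ptger4, Cdh9 and Syngr1 were on chromosome 15, which carried 3.78% of the genes with a known chromosome and of whose 741 measured genes 6 passed the threshold (0.810%). They were spread along it, with 154 measured genes between Ptger4 and Deptor, the mTOR inhibitor named in the title of the series, 109 between Cdh9 and Deptor and 232 between Deptor and Syngr1. Deptor itself was 10.88 ± 0.07 among FF mice and 10.34 ± 0.10 among VV mice (SD, n = 5 per group). The 2 genes with the smallest p of all, 2310061I04Rik and Pnldc1, were both on chromosome 17, with 457 measured genes between them. Chromosome 17 carried 4.70% of the genes, and 9 of its 920 measured genes passed (0.978%). Abca2 was on chromosome 2, Ppa2 on 3, Gsap on 5, Ddo on 10 and Tmem229b on 12.

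The measured genes next to them on the chromosome were compared in the same way. Of the 40 nearest measured neighbours, 2 on each side of each gene, 0 passed the threshold in limma, and FF and VV mice overlapped for all 40. Over all genes 0.753% passed, and FF and VV mice did not overlap for 4.7%, so counts of 0 among 40 are near those shares. At an unadjusted p under 0.05 there were 5, or 12.5%, against 16.4% of all genes, and 21 of the 40 differed in the direction of the gene they flank. The smallest adjusted p was that of Mrpl18, a mitochondrial ribosomal protein gene beside Pnldc1 (0.33, adjusted p = 0.0756). Paxx, a DNA repair factor beside Abca2, differed by 0.33 (adjusted p = 0.0824). Beside 2310061I04Rik, the tubulin acetyltransferase gene Atat1 and the mitochondrial ribosomal protein gene Mrps18b differed by 0.24 and 0.31 (adjusted p = 0.115 and 0.130), while Dhx16 on the other side differed by 0.03 with a 95% interval from -0.08 to 0.14. The fifth at an unadjusted p under 0.05 was A630072M18Rik beside Gsap, which differed by 0.20 (adjusted p = 0.152), against the direction of Gsap. Cdh9 is flanked by other cadherin genes, and Cdh6, Cdh10 and Cdh12 differed by -0.23, 0.09 and 0.27 (adjusted p = 0.574, 0.320 and 0.659). Beside Ddo, Slc22a16 and Mettl24 differed by -0.02 and -0.05, with 95% intervals from -0.17 to 0.12 and from -0.21 to 0.11. The number of neighbours past the threshold was 3 without FF mouse 3 (Mrpl18, Mrps18b and Paxx), 2 after centring arrays on their median (Mrpl18 and Paxx), and 1 (Mrpl18) with array weights or without genes below the median intensity.

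**Figure D4:**
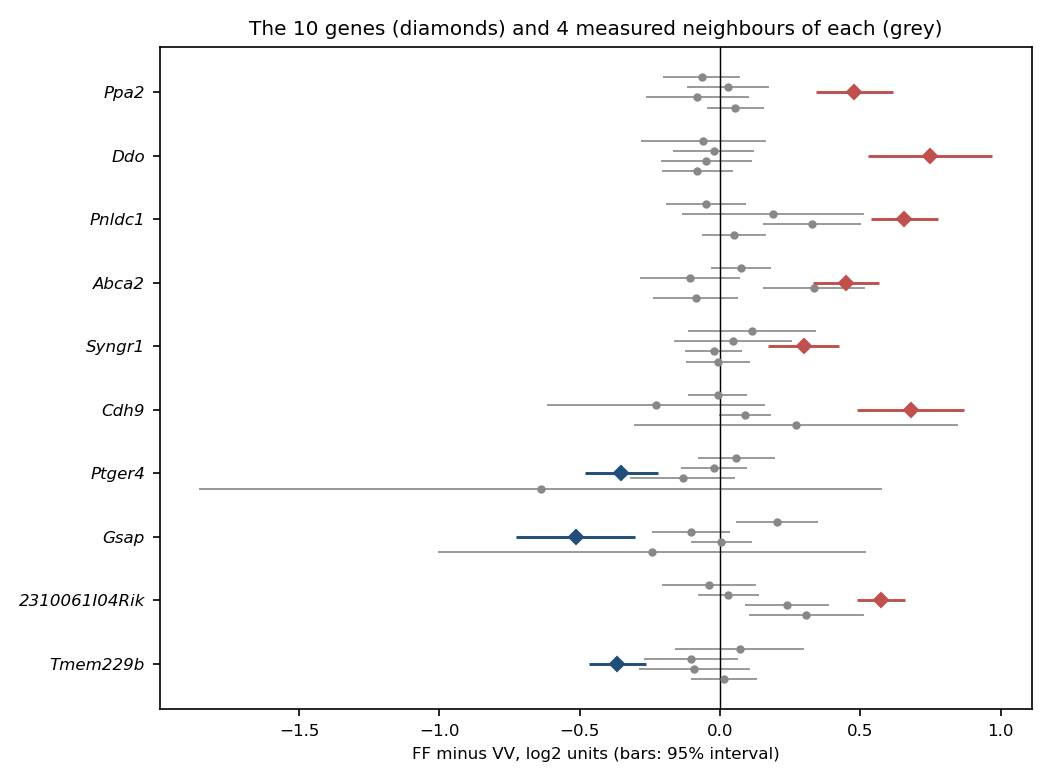
Difference between FF and VV means (horizontal, log2 units) with its 95% interval for each of the 10 genes, as diamonds, and for its 4 nearest measured neighbours, as grey points. Of the 40 grey intervals 5 do not cross 0, and the widest, that of C9 beside Ptger4, runs from -1.86 to 0.58.

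Short motifs were searched on both strands of the promoter windows, which RefSeq gave for 8 of the 10 genes, not for 2310061I04Rik and Pnldc1. They were the CCAAT box, the GC box (written GGGCGG), the TATA box (written TATAAA), the E-box (written CACGTG), the element of oestrogen-related receptors (TNAAGGTCA), the cyclic AMP response element (TGACGTCA), and the longer elements of NRF1 and PPAR, which are given by name. The CCAAT box was found for Cdh9, Ddo, Gsap, Ptger4 and the second window of Tmem229b, and in 37.4% of all 32817 windows. The GC box was found for Abca2, Ppa2, Syngr1, Ptger4 and the first window of Tmem229b, and in 35.6% of all windows. The E-box of Ddo was shared with 7.15% of all windows, the NRF1 match of Syngr1 with 4.59% and the TATA box of the second window of Tmem229b with 13.6%. The other 3 motifs were not in these windows, and are in 1.28%, 1.79% and 0.0396% of all windows. All 3 genes lower in FF thus had a CCAAT box, Tmem229b in its second window alone, as did Cdh9 and Ddo among the 5 genes higher in FF that have a window, and no motif was common to those 5. The share of 37.4% counts windows, not genes, and Tmem229b has 2 windows. Whether any motif goes with the direction of the difference was not tested. A match is a run of letters in the reference genome, and whether the Fat-line and V-line alleles differ there, or under the probes of any of the 10 genes, was not analysed here.

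Markers of other cell types differed between mice and groups. The thermogenic adipocyte markers were higher in FF, where 5 of 10 passed the threshold and all 10 had an unadjusted p under 0.05. Their score, the mean log2 value of the markers after centring each over the 10 mice, ran from 0.35 to 1.38 in FF and from -1.29 to -0.54 in VV. The leukocyte markers were lower, where 1 of 13 passed, Ptprc, which encodes CD45 (-0.68, adjusted p = 0.0422), and 12 had an unadjusted p under 0.05. Their score ran from -0.45 to 0.04 in FF and from 0.12 to 0.61 in VV, with no overlap. The 3 genes lower in FF were Tmem229b, Ptger4 and Gsap. The score of the Schwann cell and nerve markers, which share Cdh19 with the cadherins and of which 0 of 9 passed and 3 had an unadjusted p under 0.05, ran from -0.04 to 0.17 in FF and from -0.09 to -0.02 in VV. The endothelial (8) and mammary epithelial (11) markers overlapped between groups, and 0 passed (1 and 0 had an unadjusted p under 0.05). The part of any of these cell types in the differences of the 10 genes was not tested.

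Liver and muscle RNA marked single mice. The liver score was 3.62 in VV mouse 1 and 0.61 in VV mouse 2, and at most -0.25 in the other 8 mice, while the skeletal muscle score was 1.98 in FF mouse 1 and at most 0.31 elsewhere. Of the 12 liver and 12 muscle markers, 0 passed the threshold and 0 had an unadjusted p under 0.05. Without FF mouse 1 and VV mouse 1 the absolute differences of the 10 genes ran from 0.30 to 0.76, beside 0.30 to 0.75 with all mice, and all kept their direction. Gsap, Syngr1 and Ptger4 no longer passed the threshold there (adjusted p = 0.0989, 0.0991 and 0.0864).

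How far passing the threshold rested on single mice differed among the 10 genes. 2310061I04Rik, Pnldc1 and Abca2 passed the threshold whichever mouse was left out, with adjusted p of at most 0.00264, 0.00764 and 0.0470. Tmem229b was lost only without VV mouse 2, Cdh9 and Ppa2 without FF mouse 2 or VV mouse 2, and Ddo without FF mouse 1, FF mouse 2, VV mouse 2 or VV mouse 4, with adjusted p of at most 0.0641 among these 4 genes. Gsap passed only without FF mouse 3, and Ptger4 and Syngr1 only without FF mouse 3 or VV mouse 1, with adjusted p of up to 0.124 (Syngr1). The number of the 10 past the threshold was 6 without FF mouse 1, 4 without FF mouse 2, 3 without VV mouse 2 and 6 without VV mouse 4. Over all genes the number past it fell from 148 to 17, 12, 7 and 18 in the same fits. All 10 genes kept an unadjusted p under 0.05 in these 4 limma fits, where 2887, 2782, 2681 and 2705 of all genes had one. The 10 were chosen for a small p with all mice, which made this likely beforehand, so it is a description only. The differences themselves moved little: that of Ddo lay between 0.68 and 0.80, and that of 2310061I04Rik between 0.56 and 0.59.

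**Figure D5:**
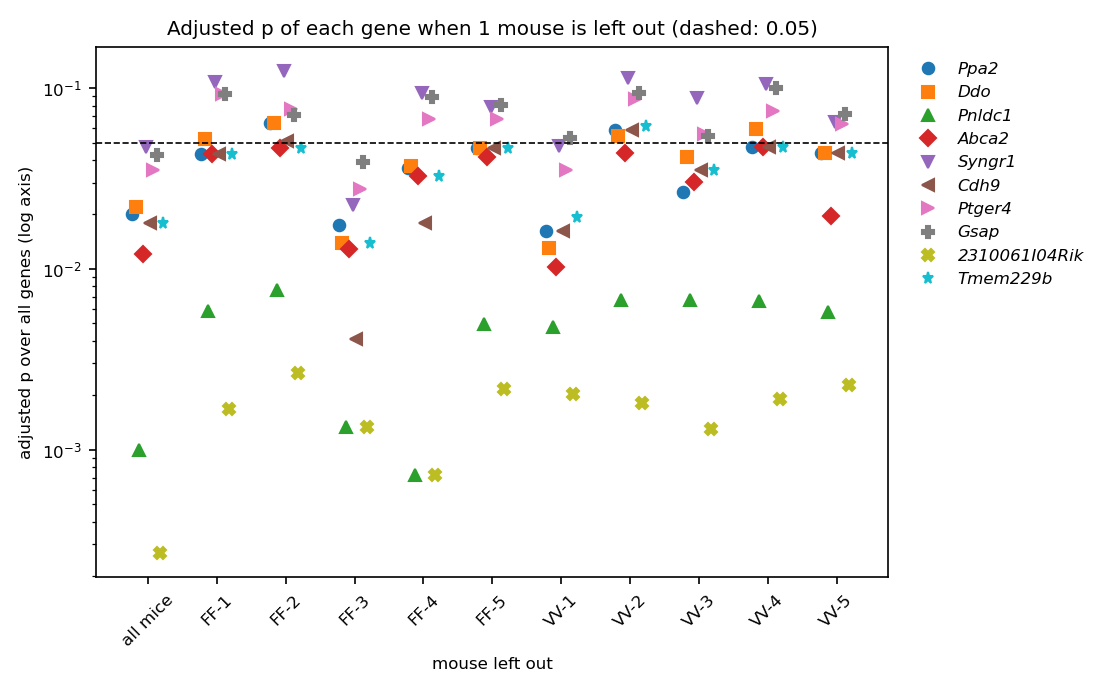
Adjusted p over all genes (vertical, log axis) of each of the 10 genes with all mice and with each mouse left out (horizontal, named by group and replicate), with the threshold of 0.05 as a dashed line. 2310061I04Rik and Pnldc1 stay well below the line in every column, and Syngr1 reaches 0.124 without FF mouse 2.

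Within the groups, some pairs of the 10 genes varied together and others varied opposite to each other. After each gene was centred on its group mean, which takes out the difference that chose it, Pearson's r over the 10 mice was between -0.80 and 0.91 for the 45 pairs. The median of 0.01 pools pairs of genes that differ in the same direction with pairs that differ in opposite directions, whose signs can cancel. In 6 pairs r was above 0.5, all between genes that differed in the same direction. In 7 pairs r was below -0.5, and of these only Cdh9 and Pnldc1 differed in the same direction. Ddo, Abca2 and Syngr1 varied together (r = 0.91 for Ddo and Abca2, 0.80 for Ddo and Syngr1 and 0.78 for Abca2 and Syngr1), and Ptger4 varied opposite to Ddo and Abca2 (r = -0.78 and -0.77). Cdh9 and Pnldc1, both higher in FF, varied opposite to each other (r = -0.80). These values are a description of 10 mice in 2 groups and were not tested. The closest gene by this measure was 1810010H24Rik for 2310061I04Rik (r = 0.95), Mrgprg for Pnldc1 (0.97), Olfr1309 for Cdh9 (0.96), Eaf2 for Tmem229b (0.95) and Guca1a for Ppa2 (0.95). It was Gm4861 for Ddo (0.96), Apc for Gsap (0.95), Eif5a for Syngr1 (0.95), Kmt2d for Ptger4 (0.94) and Tmem101 for Abca2 (0.92), for which Ddo was the second closest. Each was picked as the highest of the correlations with all other genes measured over 10 mice, so its r is high by choice. Of these 10 genes 0 passed the threshold, beside 0.753% of all genes.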

How the data were processed

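Log2 intensities of 10 one-colour arrays were used as deposited. Per the submitters' processing notes, the authors normalised and summarised them with RMA, whose version is not given in the sources used here, and nor is the genome build of the chip. Of 35557 probe sets, 25689 had a value on all 10 arrays (3.56 to 14.2, array medians 7.15 to 7.21) and 9868 had none. Of the valued probe sets 20777 named 1 gene and were used, 232 named several, and the probe table did not list 4680. A gene with several probe sets was read by its brightest probe set on average, giving 19659 genes. Symbols and chromosomes came from RefSeq on GRCm38.p6, which matched 20699 probe sets, and its gene coordinates were used only for the order of genes and the promoter windows.

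The difference between FF and VV was fitted by limma 3.58.1 under R 4.3.3 (eBayes after lmFit, without covariates, two-sided), with p adjusted by Benjamini-Hochberg over all genes at 0.05, with intervals of 95%. Positive differences are higher in FF. The procedure was tested on simulated data, with normal values drawn independently for each gene, unlike real arrays on which genes vary together. It recovered 78 of 100 genes shifted by 0.5 log2 units and 99 of 100 shifted by 1, with 7 false calls among 184. The 10 genes, the lists of relatives and markers, the naming rule and the alternatives were chosen with earlier results of these data known. Named are the 10 genes and those between and next to them by p, the 2 relatives of each with the smallest p, the 2 neighbours on each side and the genes most alike within groups, besides Deptor, Ucp1 and markers. Ptger1, Ptger2, Ptger3, Psen2, Ncstn, Aph1b, Aph1c, Txnrd2 and Cd4 were named outside this rule, with their values seen. A homologue by protein sequence, which the rule also asks for, was not used here. Figures were drawn with matplotlib 3.10.9.

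The alternatives dropped each mouse in turn, or FF mouse 1 together with VV mouse 1, used the replicate number as a block, weighted the arrays, normalised by quantiles, subtracted each array's median, dropped genes under the median or under the 25th percentile of intensity, averaged the probe sets of a gene, kept all probe sets, or let the prior variance follow intensity with robust settings.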

Additional observations from a re-analysis of the deposited data

Results flagged for a closer look

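In 36 groups of 5 mice, the 10 genes and the 8 marker scores in FF and in VV, 3 marker scores held a mouse whose gap to the nearest other was over 0.710 of the group's range, and chance gives about 1 in 20 groups. None of the 10 genes was among them. The leukocyte score of VV replicate 2 was 0.61, against a VV median of 0.25. Among VV mice, replicate 2 was the highest for Gsap and the lowest for 2310061I04Rik, Abca2 and Ddo. The skeletal muscle score was 1.98 in FF replicate 1, against an FF median of -0.08, and 0.31 in VV replicate 1, against a VV median of -0.35. Among FF mice, replicate 1 was the highest for 2310061I04Rik, Ddo and Syngr1 and the lowest for Ppa2 and Gsap. Among VV mice, replicate 1 was the highest for Cdh9 and Ddo and the lowest for Pnldc1 and Tmem229b. For every gene 1 of the 5 mice of a group is the highest and 1 the lowest, so mice that were not flagged hold such places too. The part of leukocytes and muscle in the values of the flagged mice was not tested.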

How the results depend on the processing

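In the 20 alternatives none of the 10 genes changed direction. 2310061I04Rik and Pnldc1 passed the threshold in every alternative that tested them, and Abca2 in all but the replicate block. The number of the 10 past the threshold was 7 to 10 in the alternatives that kept all mice, except with the replicate number as a block, where it was 2 (2310061I04Rik and Pnldc1, adjusted p = 0.0446). It was 7 without genes below the median intensity, since Pnldc1, Cdh9 and Gsap were then not tested, and 3 to 10 with 1 mouse left out. The number of all genes past the threshold was 148, and it was 5 with the replicate block, 28 without FF replicate 1 and VV replicate 1, 383 with array weights, 601 with arrays centred on their median, 355 without genes below the median intensity, 230 without those below the 25th percentile, and 7 to 379 with 1 mouse left out. The cause was not tested. Numbers of relatives past the threshold were 0 to 2 with 1 mouse left out and 1 after median centring, and numbers of neighbours were 0 to 3 with 1 mouse left out, 2 after median centring, 1 with array weights and 1 without genes below the median intensity. Deviations from the group mean of same-numbered mice correlated over genes with r from -0.26 to 0.10. Differently numbered mice were not compared in this way, so whether replicate numbers mark a pairing or batch was not tested. After median centring 92.2% of calls were higher in FF, beside 82.4% as reported.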

Other observations

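Besides 2310061I04Rik, Pnldc1, Tmem229b, Abca2 and Ppa2, the genes whose FF and VV mice were further apart than the widest range within a group were Deptor, Ucp1, Coq10a, Vipas39 and Septin2. They were singled out after their values were seen. Vipas39 differed by 0.21 (9.22 ± 0.04 among FF mice and 9.01 ± 0.03 among VV mice, SD, n = 5 per group, limma adjusted p = 0.0383), and it takes part in protein sorting in endosomes. Septin2 differed by -0.22 (11.48 ± 0.04 among FF mice and 11.69 ± 0.05 among VV mice, SD, n = 5 per group, limma adjusted p = 0.0427), and it encodes a filament-forming GTPase. The distance between their nearest FF and VV mice was 1.15 and 1.15 times the widest range within a group, beside 1.59 for Deptor. Vipas39 lies on chromosome 12, as Tmem229b does, and Septin2 on chromosome 1.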
